A study of Mus musculus with 36 samples.

Results

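The response to the lack of B cells was compared between tumour-associated macrophages (TAMs) and tumour CD8+ T cells of the same experiment. Within each cell type the response of a gene is its log2 fold change between *muMt*-/- and WT mice, and the difference is the TAM response minus the CD8 response. Genes were taken when their mean count was above 1 molecule per library in the 12 TAM libraries and also in the 12 CD8 libraries, which held for 6283 of the 24781 genes in the deposited table. The 4 groups make up 24 of the 36 libraries of the series.

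Mice carried intradermal tumours of MC38, a mouse colon adenocarcinoma line, and cells were sorted on day 7. TAMs were sorted as CD45+CD11b+F4/80 high cells and T cells as CD45+TCRβ+CD8+ cells, 100 cells per library, each library from 1 mouse. There were 6 libraries for each cell type from WT mice (C57BL/6J or C57BL/6N) and 6 from *muMt*-/- mice (C57BL/6J), which lack mature B cells from birth and keep their T cells and macrophages. The labels give no treatment for these 4 groups, the paper describes them as mice with a placebo pellet, and it gives an age of 2 to 5 months and both sexes for the mice of the study as a whole. The labels do not say whether TAM and CD8 libraries of the same number share a mouse, and libraries were treated as unpaired. The genotype rests on the labels, because *Ighm*, the gene disrupted in *muMt*-/- mice, and further immunoglobulin constant genes were not analysed here. Digital RNA sequencing counts barcoded molecules in place of amplified reads. The comparison asks which genes and programmes of these cells go with the lack of B cells in the same way, and which do not.

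Macrophages engulf and digest material in lysosomes, present peptides on MHC class II and make complement C1q, ferritin and cytokines such as TNF. Cytotoxic T cells recognise peptides on MHC class I, divide after activation and kill with granzymes and perforin. B cells can act on both kinds of cell through antibodies, cytokines and metabolites, and the study asked this for GABA made by B cells.

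The sorted cells carried the markers of their labels. All 20 T cell markers were found in the CD8 libraries of each genotype, and their summed level ranged from 4909 to 9192 CPM (counts per 1000000 of a library) in WT mice (median 6923) and from 2629 to 7711 in *muMt*-/- mice (median 5763). All 22 macrophage markers were found in the TAM libraries of each genotype, with a summed level of 22411 to 27915 CPM in WT mice (median 26026) and 18765 to 24123 in *muMt*-/- mice (median 21349.5). T cell markers were nearly absent from TAM libraries. There they summed to a median of 46.8 CPM in WT and 17.8 CPM in *muMt*-/- mice, with *Thy1*, a surface glycoprotein of T cells, as the most abundant, and the level in *muMt*-/- mice was 0.520 of that in WT mice (exact permutation of log2 levels with 1 molecule added, two-sided p = 0.173, n = 6 against 6).

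B cell markers were close to 0 in every group. At most 6 of the 12 were found in any of the 4 groups, *Cd79a*, *Ms4a1*, *Pax5*, *Blk* and *Vpreb3* had no molecule in any of them, and the medians ran from 9.32 to 19.2 CPM, lowest in CD8 libraries and highest in TAM libraries of WT mice. Neutrophil markers had medians of 45.7 CPM in WT TAMs, 118 in *muMt*-/- TAMs, 0 in WT CD8+ T cells and 60.8 in *muMt*-/- CD8+ T cells. For dendritic cell markers the medians were 43.1, 48.6, 404 and 379.6 CPM in the same order, and in CD8 libraries *Ccr7*, which T cells also express, made up most of the sum. NK cell markers stood at 1053, 795, 427 and 560.3 CPM, led by *Tyrobp*, also a macrophage marker, in TAMs and by *Gzma*, a granzyme of cytotoxic T cells too, in CD8 libraries. Tumour and stroma markers, led by the collagen gene *Col3a1*, stood at 541, 602, 239 and 839.8 CPM, and *Krt18*, *Krt19*, *Cldn4* and *Cldn7* had no molecule in these groups. Nuclear RNA, led by *Malat1*, stood at 3665, 5770, 4239 and 3343 CPM. Among sex-linked genes *Xist* had no molecule in any of the 4 groups, and the summed medians were 155, 164, 203 and 180.4 CPM, led by the Y-linked *Ddx3y*.

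By its median, macrophage RNA in the CD8 libraries was higher in *muMt*-/- than in WT mice. In WT CD8+ T cells the 22 macrophage markers summed to 392 to 3054 CPM (median 667), with 20 of 22 found and *Adgre1* and *Mrc1*, the genes of F4/80 and the mannose receptor, at 0. In *muMt*-/- CD8+ T cells all 22 were found and summed to 1520.0 to 8769 CPM (median 2319). *Ctss*, the gene of the protease cathepsin S, was the most abundant marker in both. The level was 3.56 times as high in *muMt*-/- mice, and 2 of 6 libraries exceeded the highest WT library (exact permutation, two-sided p = 0.0173, 0.0520 adjusted for the 4 tests of depth and markers), so that it did not pass after adjustment. As a share of the mean TAM level of the same genotype, the median was 2.63% in WT and 10.8% in *muMt*-/- CD8+ T cells. The highest WT library was CD8T-WT replicate 5 with 3054 CPM, and CD8T-uMT replicates 1 and 5 were highest of all with 8769 and 3811 CPM.

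Depth lay in opposite directions in the cell types, without passing after adjustment. In WT TAMs a library had 206394 to 304100 molecules (median 242756), against 100254 to 253608 in *muMt*-/- mice (median 149960), a ratio of 0.646 (exact permutation, two-sided p = 0.0260, 0.0520 adjusted, 4 of 6 below the lowest WT library). WT CD8 libraries had 22896 to 76898 (median 42065.5), against 51064 to 77839 in *muMt*-/- mice (median 67121.5), a ratio of 1.67 (exact permutation p = 0.0390, 0.0520 adjusted, 2 of 6 above the highest WT library). The median number of genes found was 10531.5 and 9527 in TAMs and 6340 and 8155 in CD8+ T cells. Since 100 cells went into each library, fewer molecules per cell, fewer cells and lower capture cannot be told apart, and for any gene in bulk RNA fewer cells of a type and less RNA per cell cannot be told apart either.

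Of 6283 genes 13 passed the test for unlike responses with TMM over the 24 libraries, and these 13 lay on the same side. This count depends on the fit, with 1 gene passing under DESeq2's size factors or with all 36 libraries, and 1 to 50 leaving out 1 library. The TAM response was below the CD8 response for the 13 (0.207%, edgeR quasi-likelihood test, Benjamini-Hochberg adjusted p under 0.05), and in every one of the 13 the TAM estimate was negative and the CD8 estimate positive. A test of the difference favours genes with opposite signs, so that this pattern is in part set by the test. The 13 include lysosomal and complement genes of macrophages (*Grn*, *Psap*, *C1qb*, *C1qc*, *Mpeg1*), the ferritin light chain gene *Ftl1*, ribosomal protein genes (*Rpl28*, *Rpl7a*), the histone gene *H2afz* and the mitosis gene *Cdc20*. With the same edgeR test 0 genes had a TAM response above the CD8 response, where 144 did so at an unadjusted p under 0.05 and 17 with DESeq2 after adjustment. Other edgeR fits gave 0 to 7 above, such as 3 above and 5 below with a mean count above 5. Before adjustment 666 genes (10.6%) had p under 0.05, 144 with the TAM response above and 522 below. This split rests on the scaling, since DESeq2's size factors in the same test gave 227 above and 355 below. *Cdc20* and *C1qc* are past the filter on low counts through *muMt*-/- CD8+ T cells alone, so that their direction was set by the filter. With a mean count above 1 in each of the 4 groups, an alternative chosen after the data were seen, 4983 genes were tested and 6 passed, all among the 13 (*BC018473*, *Grn*, *Ftl1*, *C1qb*, *H2afz* and *Rpl28*).

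The median difference over all 6283 genes was -0.22 with TMM and -0.08 with DESeq2's size factors, and -0.05 over the 1732 genes with a mean count above 5, so list medians are also given relative to the median of all genes. With TMM 3967 of the 6283 genes had a negative difference, 3213 a negative TAM response and 3980 a positive CD8 response. Counts of signs in the lists below stand against these. The TAM response passed for 170 genes (2.71%), 90 up and 80 down, and the CD8 response for 15 (0.239%), all up. The 15, and the CD8 calls of single genes below, became 0 with DESeq2's size factors, all 36 libraries or macrophage marker level as a covariate. With a mean count above 5 the CD8 response passed for 2 genes up and 2 down. Before adjustment 1031 (16.4%) and 518 (8.24%) had p under 0.05. Of the 13 genes, 4 passed in TAMs and 5 in CD8+ T cells, while *BC018473* passed in both. Across the 6283 genes the responses were nearly unrelated (Pearson r 0.076 and Spearman rho 0.054 across genes, which share their libraries and are not independent replicates). Both estimates were positive for 1996 genes and both negative for 1229, whereas 1984 were negative in TAMs and positive in CD8+ T cells and 1074 the reverse.

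**Figure D1:**
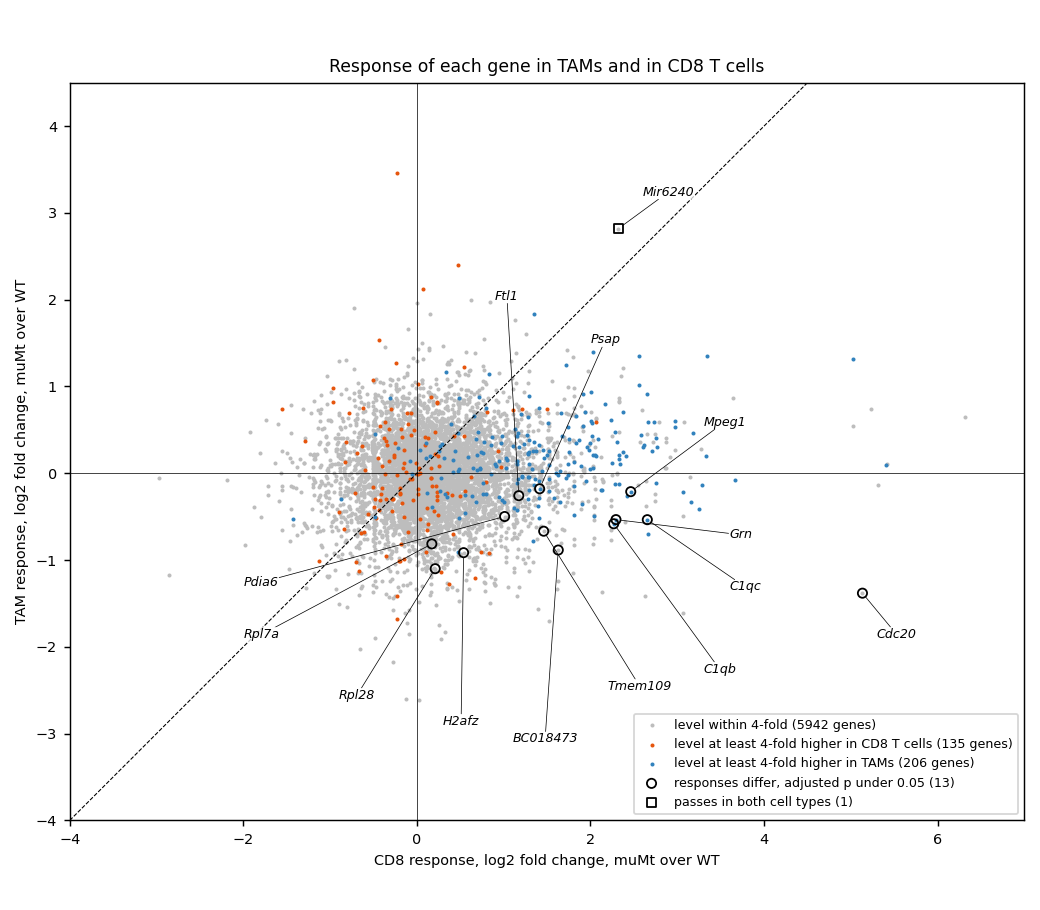
Response of 6283 genes to the lack of B cells in CD8+ T cells (x axis) and TAMs (y axis), each as log2 fold change of *muMt*-/- over WT mice, 6 libraries per group, coloured by how the levels compare between the cell types. The 13 circled genes, with adjusted p under 0.05 for the difference, all lie below the dashed line of equal responses, and *Mir6240* (square) lies near it with 2.82 in TAMs and 2.32 in CD8+ T cells.

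The difference went with how much higher a gene was in TAMs than in CD8+ T cells. For 206 genes with a level at least 4-fold higher in TAMs (mean CPM over all libraries of each cell type), the median CD8 response was 1.36, the median TAM response 0.18 and the median difference -1.25, and 77 of them (37.4%) had an unadjusted p under 0.05, all with the TAM response below. Of all 6283 genes 1300 lack a mean count above 1 in each of the 4 groups, as do 12 of 21 macrophage markers. Where a gene passed the filter through *muMt*-/- CD8+ T cells alone, its direction was set by the filter. The 206 genes were not tested again without such genes, so the values do not show how far level itself goes with the difference. For 5942 genes within 4-fold the medians were 0.15 in CD8+ T cells, -0.02 in TAMs and -0.20 for the difference, with 575 (9.68%) at an unadjusted p under 0.05. The 135 genes at least 4-fold higher in CD8+ T cells had a median difference of 0.02, with 14 at an unadjusted p under 0.05. Of the 13 genes past the threshold, 5 were at least 4-fold higher in TAMs and 8 were within 4-fold. These values lie beside the higher macrophage marker level of *muMt*-/- CD8 libraries, and its part in the differences was not tested. With the log2 macrophage marker level of the CD8 libraries as a covariate, 8 genes passed in edgeR, 4 above and 4 below, of which 2 were among the 13 (*Rpl28* and *Rpl7a*). More alternatives were chosen after the data were seen. Without the CD8 library of each genotype highest in these markers (CD8T-WT replicate 5 and CD8T-uMT replicate 1) 48 genes passed, 12 of them among the 13. Without the highest of all, CD8T-uMT replicates 1 and 5, 5 passed, 3 of them among the 13 (*BC018473*, *H2afz* and *Rpl28*).

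Lysosomal and complement genes of the 13 had far lower medians in WT CD8+ T cells than in WT TAMs. Their medians were higher in *muMt*-/- than in WT CD8+ T cells. In TAMs they were lower in *muMt*-/- than in WT mice, though nearly equal for *Psap* (2128 and 2153). *Grn* (chr11:102430507-102436809, mm10 here and below) encodes progranulin, a glycoprotein that acts in lysosomes. Levels of genes are in mpm, molecules per 1000000 of the TMM-scaled library. The level of *Grn* in WT TAMs was 933–1337 mpm (median 1094) and in *muMt*-/- TAMs 378–1127 (median 738), with 5 of 6 below every WT library. In WT CD8+ T cells it was 0–56.0 (median 36.01), with 2 libraries at 0, and in *muMt*-/- CD8+ T cells 57.3–394 (median 161), all above the WT libraries. The CD8 response of 2.29 passed (edgeR adjusted p = 0.0349), the TAM response of -0.53 did not (0.177), and the difference was -2.83 ± 0.56 (SE, adjusted p = 0.0244). *Psap* (chr10:60277628-60302600) encodes prosaposin, the precursor of the saposins that help enzymes break down sphingolipids. It stood at 1922–3007 mpm (median 2153) in WT TAMs and 1348–2624 (median 2128) in *muMt*-/- TAMs, which overlap, and rose in CD8+ T cells from 81.9–448 (median 187) to 267–854 (median 529), with 3 of 6 *muMt*-/- libraries above every WT library. Its difference was -1.59 ± 0.36 (adjusted p = 0.0454), with a CD8 response of 1.41 (adjusted p = 0.0269).

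*C1qb* and *C1qc* lie close together (chr4:136880126-136886200 and chr4:136889801-136892936) and encode chains of C1q, which starts the classical complement pathway and is made mainly by macrophages. *C1qb* was at 1955–2663 mpm (median 2383) in WT TAMs and 1198–1917 (median 1582) in *muMt*-/- TAMs, where every library was below every WT library. In CD8+ T cells it was at 0–93.3 (median 32.6) in WT and 26.2–558 (median 137) in *muMt*-/- mice, with 4 of 6 above every WT library. The difference for *C1qb* was -2.85 ± 0.59 (edgeR adjusted p = 0.0265), made of -0.58 in TAMs and 2.27 in CD8+ T cells, neither of which passed by itself (adjusted p = 0.166 and 0.0542). *C1qc* had no molecule in 4 of 6 WT CD8 libraries, where it reached at most 56.0 mpm, and 0–246 (median 88.7) in *muMt*-/- CD8+ T cells. In TAMs it was at 1823–2660 (median 2285) in WT and 1143–1805 (median 1620) in *muMt*-/- mice, again without overlap. Its difference was -3.19 ± 0.72 (adjusted p = 0.0454), and with 4 molecules in the 6 WT CD8 libraries against 38 in *muMt*-/- mice it was tested only because of the latter.

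*Mpeg1* (chr19:12460770-12465285) encodes perforin-2, a pore-forming protein of macrophages, and *Ftl1* (chr7:45457944-45459886) the light chain of ferritin, which stores iron. *Mpeg1* overlapped between genotypes in TAMs, at 980.4–1581 mpm (median 1122) in WT and 568–1514 (median 1038) in *muMt*-/- mice. It rose in CD8+ T cells from 0–187 (median 36.01) to 86.5–887 (median 175) (response 2.46, edgeR adjusted p = 0.0349), with 3 of 6 above every WT library. The difference of *Mpeg1* was -2.68 ± 0.62 (adjusted p = 0.0454). *Ftl1* was far more abundant than these, at 3195–4595 mpm (median 3447) in WT TAMs and 2436–3604 (median 2984) in *muMt*-/- TAMs, with 3 of 6 below every WT library. In CD8+ T cells it rose from 303–639.5 (median 449) to 564–1987 (median 869) (response 1.17, adjusted p = 0.0116), with 5 of 6 above every WT library, and its difference was -1.43 ± 0.29 (adjusted p = 0.0244). With the macrophage marker level of the CD8 libraries as a covariate 0 of these 6 genes passed in edgeR, at adjusted p = 0.328 for *Grn*, 0.467 for *Ftl1*, 0.517 for *C1qb*, 0.529 for *C1qc*, 0.543 for *Psap* and 0.672 for *Mpeg1*. Their differences then ran from -1.60 (*Grn*) to -0.65 (*Psap*), so all 6 were still negative. *C1qb* and *C1qc* are themselves among the macrophage markers, so their loss was in part set by the covariate. Over all settings the adjusted p ran from 4.64e-07 to 0.328 for *Grn*, 1.58e-05 to 0.581 for *Ftl1*, 4.39e-08 to 0.517 for *C1qb*, 3.27e-05 to 0.529 for *C1qc*, 2.71e-05 to 0.633 for *Psap* and 1.67e-08 to 0.672 for *Mpeg1*. Leaving out 1 library at a time, *Grn* and *Ftl1* passed in 22 of 24 fits, *C1qb* in 19, and *C1qc*, *Psap* and *Mpeg1* in 7.

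**Figure D2:**
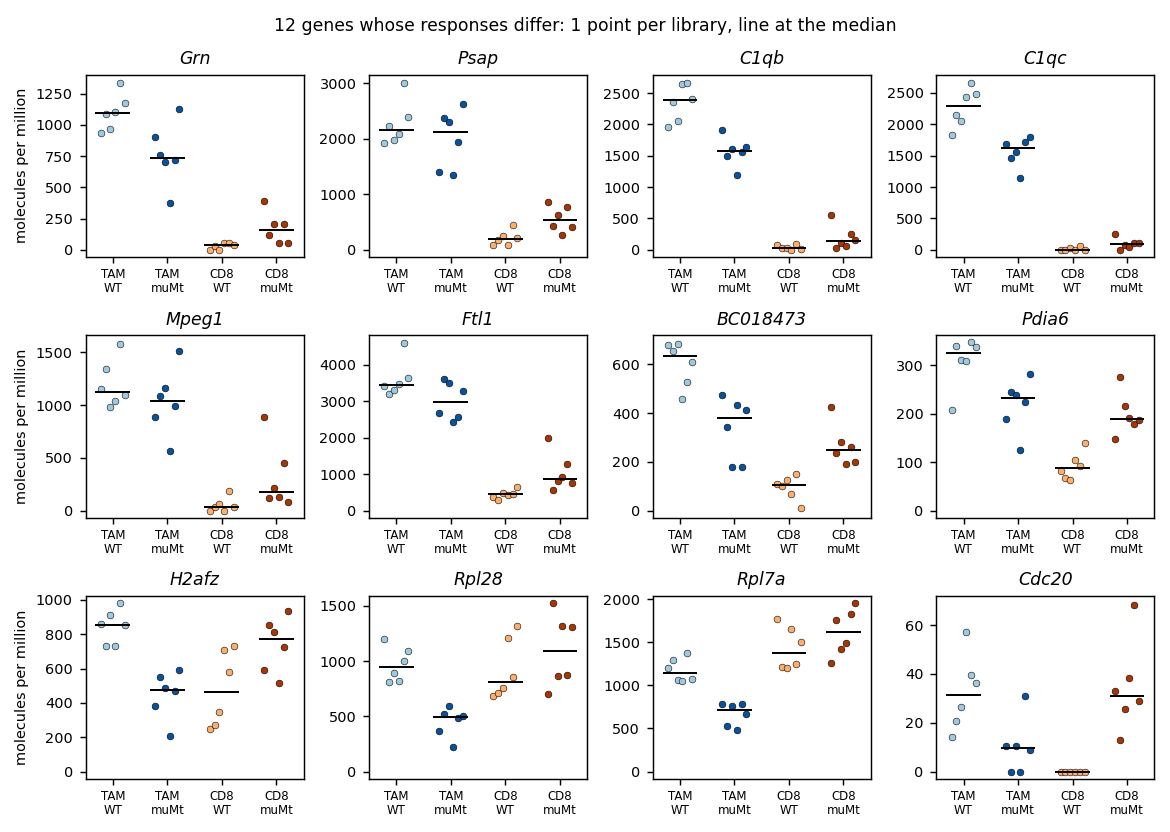
Level of 12 of the 13 genes whose responses differ, in mpm per library (y axis), with 1 point per library and a line at the median of the 6 libraries of each group. Each gene is lower in *muMt*-/- than in WT mice by its TAM median and higher by its CD8 median, and *Cdc20* is at 0 in all 6 WT CD8+ T cell libraries.

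*BC018473*, a transcript with no clear role (chr11:116752167-116757883), had the smallest p of all and changed in both cell types in opposite directions. It fell in TAMs from 460.3–686 mpm (median 634) to 180.4–474 (median 379) (response -0.88, edgeR adjusted p = 0.0155), with 5 of 6 *muMt*-/- libraries below every WT library. It rose in CD8+ T cells from 12.8–149 (median 105) to 191–427 (median 248) (response 1.63, adjusted p = 0.0389), with all 6 above every WT library. The difference of -2.51 ± 0.43 (adjusted p = 0.00398) passed when any 1 of the 24 libraries was left out. With the macrophage marker covariate it was -1.95 (adjusted p = 0.0773, over all settings 2.96e-08 to 0.0773) and did not pass.

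Other genes among the 13 were within 4-fold between cell types. *H2afz* (chr3:137864487-137866922) encodes the histone variant H2A.Z. It fell in TAMs from 733–982 mpm (median 855) to 205–589.9 (median 478) (response -0.92, edgeR adjusted p = 0.00642), without overlap, while CD8+ T cells were at 246–729 (median 463) in WT and 515–937 (median 771) in *muMt*-/- mice, which overlap (response 0.54, adjusted p = 0.479). Its difference was -1.45 ± 0.31 (adjusted p = 0.0300). *Pdia6* (chr12:17266589-17284785) encodes a protein disulfide isomerase that helps proteins fold in the endoplasmic reticulum. In TAMs it was at 208–348 mpm (median 325) in WT and 126–282 (median 232) in *muMt*-/- mice, and in CD8+ T cells at 63.3–141 (median 87.6) and 148–275 (median 189), where the groups do not overlap. The difference of *Pdia6* was -1.51 ± 0.35 (adjusted p = 0.0454). *Tmem109* (chr19:10870657-10881743), a membrane protein gene that the rule for named genes leaves out and that was chosen after its values were seen, was at 71.0–165 mpm (median 88.8) in WT TAMs and 47.3–79.6 (median 66.0) in *muMt*-/- TAMs. It was at 17.3–67.3 (median 34.5) in WT and 76.3–148 (median 91.5) in *muMt*-/- CD8+ T cells, again without overlap. Its difference was -2.13 ± 0.49 (adjusted p = 0.0454). Leaving out 1 library at a time, *H2afz* passed in 16 of 24 fits, *Pdia6* in 7 and *Tmem109* in 5. None of these passed in edgeR with the macrophage marker covariate (adjusted p = 0.0773, 0.0773 and 0.268), where their differences were -1.43, -1.73 and -1.81, and over all settings the adjusted p ran from 3.37e-05 to 0.728, 0.0121 to 0.596 and 0.0176 to 0.534.

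Many ribosomal protein genes fell in TAMs, while 0 passed in CD8+ T cells in edgeR. Of 79 genes of the cytosolic ribosome, all tested, 75 had a negative TAM response and 28 passed in TAMs, all down (edgeR adjusted p under 0.05), against 2.71% of all genes. In CD8+ T cells 1 had an unadjusted p under 0.05, and 57 of 79 had a negative response. The TAM median was -0.44 and the CD8 median -0.07, or -0.42 and -0.23 relative to all genes, and the mean log2 level of the list did not overlap between WT TAMs (10.32 to 10.58) and *muMt*-/- TAMs (9.74 to 10.26). The difference was negative for 72 of 79 with a median of -0.35, which is -0.14 relative to all genes, and 2 passed (0.207% of all genes). With DESeq2's size factors that median was -0.19, or -0.11 relative to all genes, and the CD8 median -0.21 with 73 of 79 negative. With a mean count above 5 the CD8 median was -0.23 with 75 negative, and with the macrophage marker covariate 0.06 with 23 negative. TAM depth also differed between the genotypes, and with library depth (log2 molecules) as a covariate 11 of 6283 genes (8 up and 3 down) passed in TAMs in place of 170, 9 of them shared, and the ribosomal median difference was -0.14. Nuclear RNA in these TAM libraries was at 3175 to 3896 CPM in WT and 4688 to 10474 CPM in *muMt*-/- mice, and its part was not tested. The part of depth was not tested further.

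*Rpl28* (chr7:4792965-4794547) fell in TAMs from 810.3–1202 mpm (median 948) to 221–594 (median 491) (response -1.10, edgeR adjusted p = 0.00224), and the groups do not overlap. In CD8+ T cells it was at 682–1317 (median 809) in WT and 706–1521 (median 1094) in *muMt*-/- mice, which overlap, and its difference was -1.31 ± 0.29 (adjusted p = 0.0451). *Rpl7a* (chr2:26910685-26913312), whose locus also holds small nucleolar RNA genes, fell in TAMs from 1051–1380 mpm (median 1139) to 481–784 (median 717) (response -0.81, adjusted p = 0.00257), also without overlap. It was at 1202–1774 (median 1379) in WT and 1264–1961 (median 1623) in *muMt*-/- CD8+ T cells, with a difference of -0.99 ± 0.22 (adjusted p = 0.0454). With the macrophage marker covariate both passed, *Rpl28* with -1.62 (adjusted p = 0.0101) and *Rpl7a* with -1.21 (adjusted p = 0.0298). Over all settings their adjusted p ran from 1.03e-04 to 0.663 and from 0.00627 to 0.596, highest with the number of molecules as a covariate, and they passed in 13 and 10 of 24 fits that left out 1 library. Among the most abundant of the list, *Rplp1* and *Rpl41* fell in TAMs (-0.57 and -0.59, adjusted p = 0.0191 and 0.0298), whereas *Rps26* had 0.31 (TAMs) and 0.05 (CD8+ T cells) and passed in neither.

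Transcripts of ribosomal proteins start in a pyrimidine stretch, and the sequence around the start of both genes is shown because they are the ribosomal protein genes among the 13. Whether it bears on their change was not tested. The windows run from 20 bases before to 40 bases from the start that RefSeq (GRCm38.p6) gives, on the plus strand, at chr7:4792945-4793004 for *Rpl28* and at chr2:26910787-26910846 for *Rpl7a*. For *Rpl7a* that start lies inside the gene as annotated above and is not its first base. Capitals mark CTTTC on the gene's strand, with overlapping matches in *Rpl7a*, and it was searched on the other strand as GAAAG.
Rpl28: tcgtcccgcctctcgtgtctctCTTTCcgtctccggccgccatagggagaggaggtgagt
Rpl7a: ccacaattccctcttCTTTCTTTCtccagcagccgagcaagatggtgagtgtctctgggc
On the gene's strand CTTTC is in this window of 25 of 58 ribosomal protein genes (43.1%), those of the 79 with a promoter in the table, and of 2065 of all 27025 promoters (7.64%), and on either strand of 50% and 14.7%. A match is a description of the letters and no sign of a site.

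Genes of oxidative phosphorylation, whose complexes make ATP in mitochondria, had negative TAM and near-zero CD8 responses as a list. Of 77 subunits, 67 had a negative TAM response and 7 fell in TAMs (edgeR adjusted p under 0.05, against 2.71% of all genes), while 0 passed in CD8+ T cells (3 at an unadjusted p under 0.05), where 0.239% of all genes did. The medians were -0.30 and 0.19, or -0.29 and 0.03 relative to all genes, and the difference was negative for 73 of 77 with a median of -0.51 (-0.29 relative to all genes), with 0 passing in edgeR and 15 at an unadjusted p under 0.05, all below. *Cox5b*, a subunit of complex IV, fell most clearly in TAMs (-1.04, adjusted p = 0.00257) and was at 0.33 in CD8+ T cells, a difference of -1.37 (adjusted p = 0.0663). *Atp5g1*, which encodes subunit c of the ATP synthase ring, fell in TAMs by 0.93 on the log2 scale (adjusted p = 0.0200). The study's list of 25 such genes, which it chose on these libraries and which is no independent evidence, had a TAM median of -0.57 and a CD8 median of 0.08, with 6 down in TAMs and 0 passing for the difference (13 at an unadjusted p under 0.05). Its examples *Atp5d*, *Atp5g2* and *Ndufb2* were at -0.82, -0.60 and -0.70 in TAMs and 0.06, 0.10 and 0.02 in CD8+ T cells, and none passed in either. With library depth as a covariate 3 of all 6283 genes passed as lower in TAMs, in place of 80.

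Few genes of other housekeeping machines of the cell passed. Of all genes 2.71% passed in TAMs and 0.207% for the difference, and in lists of this size 1 gene is near the TAM share. Of 73 mitochondrial ribosomal protein genes 57 had a negative TAM response, where 3213 of all 6283 genes did. A negative difference was found for 50 (median -0.40, -0.18 relative to all genes), near the share of all genes (3967 of 6283). Of the 73, 13 lack a mean count above 1 in each of the 4 groups. In edgeR 0 passed in any comparison (11 down in TAMs and 6 for the difference at an unadjusted p under 0.05). Core spliceosome genes had a median difference of -0.39 (-0.17 relative to all genes, 29 of 35 negative), with *Phf5a* the 1 gene down in TAMs (-1.42, edgeR adjusted p = 0.0466). For 37 translation factors the median was -0.28 (-0.07 relative to all genes, 30 negative), with *Eif3g* the 1 gene down in TAMs (-1.08, adjusted p = 0.0366). Proteasome genes (31) and heat shock chaperone genes (26) had medians of -0.24 and -0.24, which are -0.02 and -0.02 relative to all genes. The chaperonin gene *Cct7* was the 1 of these that passed in TAMs (-0.84, adjusted p = 0.0366). In the most abundant genes of these lists the responses were small, such as -0.15 and -0.09 for *Eef1a1*, -0.01 and 0.08 for *Psma2* and -0.13 and 0.38 for *Hspa8* in TAMs and CD8+ T cells.

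By their estimates cell division genes were lower in *muMt*-/- TAMs, and 3 mitosis genes passed there (2.71% of all genes did). Of 52 mitosis genes 40 were tested, 39 had a negative TAM response and 26 a positive CD8 response, as had 63.3% of all genes, with medians of -0.62 and 0.28 (-0.61 and 0.11 relative to all genes). The difference was negative for 36 of 40 with a median of -0.85, or -0.63 relative to all genes, and over the 7 genes of this list with a mean count above 5 it was -0.26 and the TAM median -0.12. The CD8 median was 0.00 under the macrophage marker covariate, with 20 of 40 negative. In TAMs 3 fell in edgeR, the cyclin gene *Ccna2* (-1.41, adjusted p = 0.00465), the spindle checkpoint gene *Mad2l1* (-1.83, 0.0118) and *Cdca8* (-1.32, 0.0214), which encodes borealin. Over the 32 of these genes with a mean count above 1 in each of the 4 groups the CD8 median was 0.09 and the median difference -0.67. For the difference *Cdc20* (chr4:118432901-118437343), which activates the anaphase-promoting complex, passed, and it is not among the 32. With library depth as a covariate 3 of all 6283 genes passed as lower in TAMs, in place of 80.

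*Cdc20* was at 14.2–57.0 mpm (median 31.3) in WT TAMs and 0–30.8 (median 9.67) in *muMt*-/- TAMs, where 2 libraries were at 0. All 6 WT CD8 libraries held 0 molecules, and all 6 *muMt*-/- CD8 libraries held some, 14 molecules together, at 13.1–68.4 (median 30.8). Against a floor of 3 molecules over the WT group the level was at least 3.04-fold higher in *muMt*-/- CD8+ T cells, the lower limit of the 95% counting interval is 2.16, and the fitted difference (-6.52, edgeR adjusted p = 0.0454) is no measure of its size. It passed in 5 of 23 fits that left out 1 library and not with the macrophage marker covariate (adjusted p = 0.156, over all settings 0.00198 to 0.596). The abundant mitosis genes *Tubb5* and *Top2a* had responses of -0.12 and -0.15 in TAMs and 0.48 and -0.05 in CD8+ T cells and passed in neither. Of 37 DNA replication genes tested, 34 had a negative difference (median -0.75, -0.54 relative to all genes), 2 fell in TAMs (where 2.71% of all genes passed), *Tk1* (-1.32, adjusted p = 0.0325) and the histone chaperone gene *Asf1b* (-2.03, 0.00440), and 0 passed for the difference in edgeR (5 at an unadjusted p under 0.05).

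MHC class II genes had positive estimates in CD8+ T cells, of which 2 passed, and 0 passed for the difference in edgeR. All 9 tested genes of MHC class II presentation had a level at least 4-fold higher in TAMs, a positive CD8 response and a negative difference, with medians of 2.03 in CD8+ T cells, 0.19 in TAMs and -1.80 for the difference (-1.59 relative to all genes). Of the 9, 2 rose in CD8+ T cells in edgeR, against 0.239% of all genes, and 7 had a mean count above 1 in each of the 4 groups. *Cd74*, the invariant chain that escorts class II molecules, went from 0–1026 mpm (median 97.6) to 577–3661 (median 782) (2.28, adjusted p = 0.0267), with 2 of 6 above every WT library. *H2-Aa*, a class II chain, went from 0–597 (median 59.2) to 275–1396 (median 529) (2.07, adjusted p = 0.0349), with 1 of 6 above every WT library. Their differences of -1.80 and -1.88 did not pass (adjusted p = 0.185 and 0.145), and 7 of the 9 had an unadjusted p under 0.05. Over all settings the adjusted p ran from 3.71e-08 to 0.983 for *Cd74* and 1.07e-06 to 0.830 for *H2-Aa*, and each passed in 3 of 16. The list had a CD8 median of 0.32 and a median difference of -0.06 with the macrophage marker covariate. *Ctss* and *Lgmn* of this list are themselves among the macrophage markers, so this shift was in part set by the covariate.

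Of 33 lysosomal genes tested, 31 had a positive CD8 response (median 0.75) and 28 a negative difference (median -0.89, -0.68 relative to all genes). In edgeR 3 rose in CD8+ T cells, *Psap* and *Grn* among them, and 2 passed for the difference, against 0.239% and 0.207% of all genes. Over the 27 with a mean count above 1 in each of the 4 groups the median difference was -0.82. *Laptm5*, a lysosomal membrane protein gene of leukocytes, went the other way, up in TAMs (0.54, edgeR adjusted p = 0.0488) and at 0.01 in CD8+ T cells. Among the 19 lysosomal genes within 4-fold between cell types the median difference was -0.71, and with the macrophage marker covariate that of all 33 was -0.16. *Cd68*, *Ctsb* and *Ctss* of the 33 are themselves macrophage markers, so this shift was in part set by the covariate. The macrophage markers themselves, of which 21 were tested, had medians of -0.13 in TAMs, 2.12 in CD8+ T cells and -2.12 for the difference (-1.95 with *Mrc1*, which had no molecule in WT CD8+ T cells, at its bound), with 21 negative and 2 passing. Of the 21, 12 lack a mean count above 1 in each of the 4 groups, so that the filter can set their direction. Over the 9 that have it the medians were 1.88 in CD8+ T cells and -1.72 for the difference.

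TNF targets that the study listed for CD8+ T cells overlap these genes, and they were chosen by the study on these libraries, so their direction in CD8+ T cells is no independent evidence. All 30 genes tested had a positive CD8 response (median 2.003) and a negative difference (median -1.51, -1.296 relative to all genes), and 25 a positive TAM response (median 0.41). In edgeR 3 rose in CD8+ T cells (*Grn*, *Fn1* and *Tgm2*), and *Grn* was the 1 that passed for the difference, against 0.239% and 0.207% of all genes. Of the 30, 7 lack a mean count above 1 in each of the 4 groups, so that the filter can set their direction. Over the 23 that have it the median difference was -1.23. A level at least 4-fold higher in TAMs was found for 15 of the 30. The other 15 had a median difference of -1.23. Over the 30 the median difference was -0.18 with the macrophage marker covariate. *Cd14*, *Itgam* and *Ctss* of this list are themselves macrophage markers, so this shift was in part set by the covariate. *Fn1*, which encodes fibronectin, went from 0–448 mpm (median 35.9) in WT to 43.3–2479 (median 574) in *muMt*-/- CD8+ T cells (response 2.597, edgeR adjusted p = 0.0269), with 3 of 6 above every WT library.

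**Figure D3:**
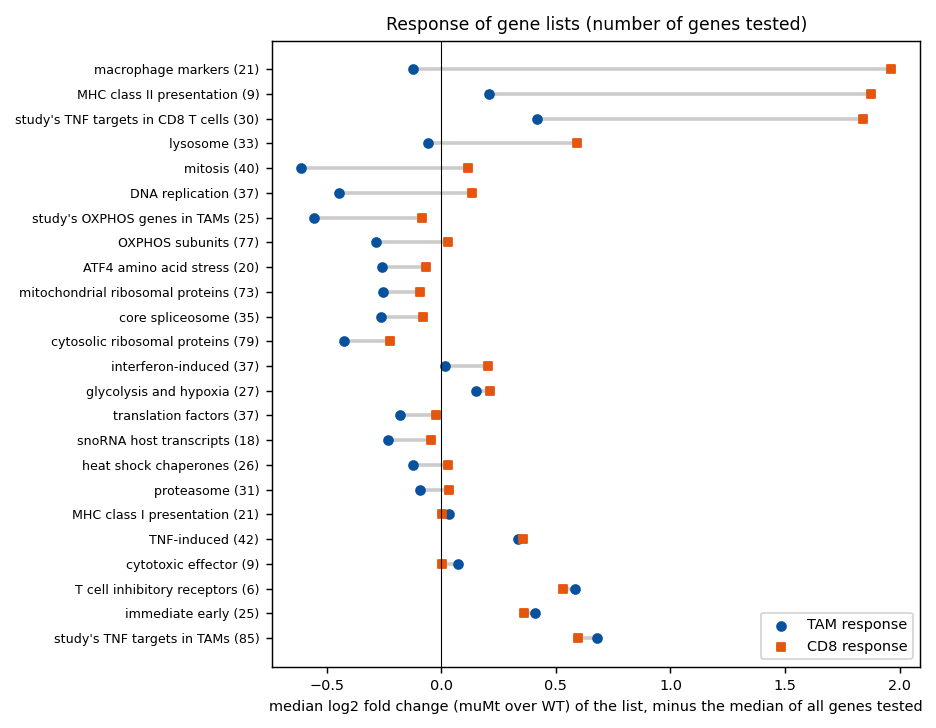
Median response of gene lists in TAMs (circles) and CD8+ T cells (squares), as log2 fold change of *muMt*-/- over WT mice minus the median of all 6283 genes (x axis), with the number of genes tested in brackets. The gap is widest for macrophage markers, MHC class II genes and the TNF targets listed by the study for CD8+ T cells, and the markers nearly meet for TNF-induced and immediate early genes.

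On the other side, genes whose TAM response lay above the CD8 response, none passed in edgeR with TMM over the 24 libraries (144 at an unadjusted p under 0.05), and the 12 with the smallest p are given as such. They include T cell genes, small nucleolar RNAs and interferon-related genes. *Fyb* (chr15:6522796-6665608) encodes an adaptor of T cell receptor and integrin signalling. In CD8+ T cells it was at 300.2–538 mpm (median 390.4) in WT and 170.4–267 (median 232) in *muMt*-/- mice, without overlap, and in TAMs at 359.8–502 (median 424) and 427–717 (median 468), which overlap. Its difference was 1.09 ± 0.27 (adjusted p = 0.0784). *Ccl5* (chr11:83525778-83530518), a chemokine gene of T cells and macrophages, was at 109–356 mpm (median 291) in WT and 263–660.4 (median 529.6) in *muMt*-/- TAMs and at 791–1765 (median 1308) and 115–1326 (median 767) in CD8+ T cells, a difference of 1.64 ± 0.46 (adjusted p = 0.120), which was 0.76 with the macrophage marker covariate (adjusted p = 0.590, over all settings 3.27e-05 to 0.596). *Ifngr1* (chr10:19591949-19610229), the ligand-binding chain of the interferon-γ receptor and an example of the study, was at 99.4–155 mpm (median 132) in WT and 176–229 (median 178) in *muMt*-/- TAMs, without overlap. It was at 384–707 (median 564) and 263–749.7 (median 323) in CD8+ T cells, a difference of 1.04 ± 0.31 (adjusted p = 0.144), or 0.69 with that covariate (adjusted p = 0.533, over all settings 0.0184 to 0.784). *P2ry10*, a receptor gene of lymphocytes, had a difference of 1.97 (adjusted p = 0.141).

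*Ccr7*, the chemokine receptor that guides cells to lymph nodes, rose in TAMs (edgeR adjusted p = 0.0320) on few molecules. In TAMs it is past the filter on low counts through *muMt*-/- libraries alone, so that its direction there was set by the filter. WT TAMs held 1 molecule together and *muMt*-/- TAMs 16, a ratio of 23.8 with a 95% counting interval of 3.70 to 998, and 3 of 6 *muMt*-/- libraries had none. Of the 16, 13 came from Mp-uMT replicate 3, where the sum of dendritic cell markers, *Ccr7* among them, was also highest (172 CPM or 36 molecules, which hold the 13, against 24.1 to 61.8 CPM in the other 5), and without this library the gene is below the count limit and was not tested. In CD8+ T cells it was at 168–443 mpm (median 243) in WT and 115–378 (median 229) in *muMt*-/- mice, and its difference did not pass (3.69, edgeR adjusted p = 0.120). *Malat1* (chr19:5795690-5802672), a long noncoding RNA of the nucleus, rose in TAMs from 3143–3828 mpm (median 3722) to 4561–11462 (median 5998) (response 0.87, adjusted p = 0.00484), without overlap. It overlapped in CD8+ T cells, at 2572–4289 (median 3560) and 1701–5615 (median 3031), and its difference was 0.97 ± 0.27 (adjusted p = 0.120). With the macrophage marker covariate that of *Malat1* was 1.51 (adjusted p = 0.00767, over all settings 0.00767 to 0.596) and passed.

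Small nucleolar RNAs guide the modification of ribosomal RNA and mostly come from introns of other genes. Their counts cannot be told apart from unspliced RNA of the genes that hold them, which are *Rps2* for *Snora64*, *Ncl* for *Snora75* and *Eif4a2* for *Snora81*. *Snora75* rose in TAMs from 16.3–39.4 mpm (median 23.5) to 52.8–126 (median 87.1) (1.67, edgeR adjusted p = 0.00255) and *Snora81* from 743–1018 (median 797) to 1238–1939 (median 1428) (0.84, adjusted p = 0.0242), both without overlap. Their differences of 1.77 and 1.08 and that of *Snora64* (2.16) did not pass (adjusted p = 0.132, 0.132 and 0.129). For *Snora81* it was 1.51 with the macrophage marker covariate and passed (adjusted p = 0.0351, over all settings 0.0133 to 0.929). *2900060B14Rik*, a noncoding transcript within *Clasp1*, rose in TAMs (1.15, adjusted p = 0.00440) and was at -0.11 in CD8+ T cells. *Gvin1*, an interferon-inducible GTPase gene, and *Gm4070* are near copies with equal counts in 22 of 24 libraries and count as 1 signal. *Gvin1* rose in TAMs from 329.7–439 mpm (median 379) to 548–743 (median 689) (0.78, adjusted p = 0.00465), without overlap, with a difference of 0.95 ± 0.28 (adjusted p = 0.141). The 18 tested host transcripts of small nucleolar RNAs had medians of -0.25 in TAMs and 0.11 in CD8+ T cells, and 0 passed in edgeR in any comparison (2 down in TAMs and 1 for the difference at an unadjusted p under 0.05).

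The lack of B cells also went with shared responses, which were tested on the mean of both and on each. The mean response passed for 66 genes (1.05%, edgeR quasi-likelihood test), 58 up and 8 down, and all 66 had the same sign in both cell types. A test of the mean favours genes with the same sign, so that this agreement is in part set by the test. The split into up and down depends on scaling and filter. It was 46 up and 24 down with DESeq2's size factors and 36 and 51 with a mean count above 5. With filterByExpr it was 61 and 57. A mean count above 1 in each of the 4 groups was lacking for 15 of the 66, so that the filter can set their direction. Where such a mean count was required, 54 genes passed, 43 up and 11 down, 50 of them among the 66. Of the 66, 34 had an unadjusted p under 0.05 in each cell type and 26 had a level at least 4-fold higher in TAMs. The stricter test, in which both responses must pass, gave 1 gene (0.0159%), *Mir6240*, and 81 (1.29%) at an unadjusted p under 0.05, 72 up and 9 down. With the macrophage marker level of the CD8 libraries as a covariate 2 genes passed, both among the 66, and the part of macrophage RNA was not tested.

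*Mir6240* (chr5:114851948-114852064) was the gene with the clearest shared rise. It went in TAMs from 64.4–217 mpm (median 104) to 507–1127 (median 777) (response 2.82, edgeR adjusted p = 1.11e-08), without overlap, and in CD8+ T cells from 64.0–127 (median 84.1) to 115–1100 (median 362) (response 2.32, adjusted p = 0.0116), with 5 of 6 above every WT library. The mean response was 2.57 (adjusted p = 6.30e-09), and the difference of 0.50 ± 0.59 did not pass (adjusted p = 0.827). The mean response passed in all 40 settings run and the stricter test in 22 of them. Leaving out any 1 of the 6 WT CD8 libraries, or CD8T-uMT replicate 1 or 3, left 0 genes past the stricter edgeR test, and in CD8T-uMT replicate 1 *Mir6240* was highest at 1100 mpm.

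The hairpin resembles a stretch of 28S ribosomal RNA, reads from both cannot be told apart, and counts of poly-A primed molecules at this locus are not counts of the mature miRNA. Its mature sequence from RefSeq (GRCm38.p6, chr5:114851973-114851998, plus strand) is shown so that the resemblance can be judged, with capitals on the seed, bases 2 to 8.
mmu-miR-6240: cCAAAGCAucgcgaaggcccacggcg
Of 4 other miRNA loci, 3 had lower medians in *muMt*-/- mice in both cell types. *Mir6236* had medians of 573 and 307 mpm in WT and *muMt*-/- TAMs and 284 and 239 in CD8+ T cells. *Mir703* had medians of 167 and 72.1 in TAMs and 204 and 152 in CD8+ T cells, and its mean response passed (-0.94, edgeR adjusted p = 0.0117). *Mir682* had 65.6 and 29.1 in TAMs and 48.5 and 27.2 in CD8+ T cells, whereas *Mir684-1* was higher in both, at 113 and 132 and at 157 and 169.

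Other genes with a shared rise were picked by the larger p of their TAM and CD8 responses. *Klf4*, a transcription factor of monocytes and macrophages, was at 145–197 mpm (median 177) in WT and 176–631 (median 328) in *muMt*-/- TAMs, with 5 of 6 above every WT library, and at 0–76.8 (median 24.5) and 0–361 (median 212) in CD8+ T cells. Its mean response was 1.73 (adjusted p = 0.00450). *Clec7a*, the gene of the β-glucan receptor Dectin-1, had responses of 1.40 and 2.03 (mean 1.72, edgeR adjusted p = 0.00450), and *Adam17*, the protease that sheds TNF from the cell surface, 0.68 and 1.74 (mean 1.21, adjusted p = 0.0108). *Adam17* did not overlap between genotypes in either cell type, at 176–219.8 mpm (median 203) and 239–568 (median 298) in TAMs and 0–56.0 (median 29.5) and 76.5–123 (median 91.0) in CD8+ T cells. *Soat1*, which esterifies cholesterol, had responses of 0.67 and 1.82 (mean 1.24, adjusted p = 0.0108). *Clec7a* has a level at least 4-fold higher in TAMs, and in CD8+ T cells it was highest in CD8T-uMT replicate 1, the library with the most macrophage marker RNA.

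Other genes of the 66 were within 4-fold between cell types, and their differences did not pass. The transcription factor gene *Irf8* was at 0.55 and 0.61 (mean 0.58, edgeR adjusted p = 0.0201), and the nuclear receptor genes *Nr4a1* and *Nr4a2*, induced soon after stimulation, at 0.67 and 0.72 and at 1.16 and 0.95 (mean adjusted p = 0.0435 and 0.0449). *Hif1a*, the oxygen-regulated transcription factor, was at 0.74 and 0.40 (adjusted p = 0.0451).

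Of the 66 genes 8 fell. *Rps27*, a small subunit ribosomal protein gene, had responses of -0.97 in TAMs and -0.54 in CD8+ T cells (mean -0.76, edgeR adjusted p = 0.00418). It stood at 1275–1952 mpm (median 1684) and 536–1141 (median 835) in WT and *muMt*-/- TAMs, without overlap, and at 2443–5145 (median 4418) and 1725–3985 (median 2373) in CD8+ T cells, which overlap. Its copy *Rps27rt* was at -0.35 and -0.57 (mean -0.46, adjusted p = 0.0252), and reads of such copies may not be told apart. *Fasn*, fatty acid synthase, had -1.10 and -1.48 (mean -1.29, adjusted p = 0.0225), and *Bola2*, which helps to hand on iron-sulfur clusters, -0.94 and -0.87 (mean -0.90, adjusted p = 0.0252). *Rbm8a* of the exon junction complex (-0.50 and -0.85) and the protease inhibitor gene *Serpina3g* (-0.47 and -1.03) missed the threshold (mean adjusted p = 0.0538 and 0.0549).

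**Figure D4:**
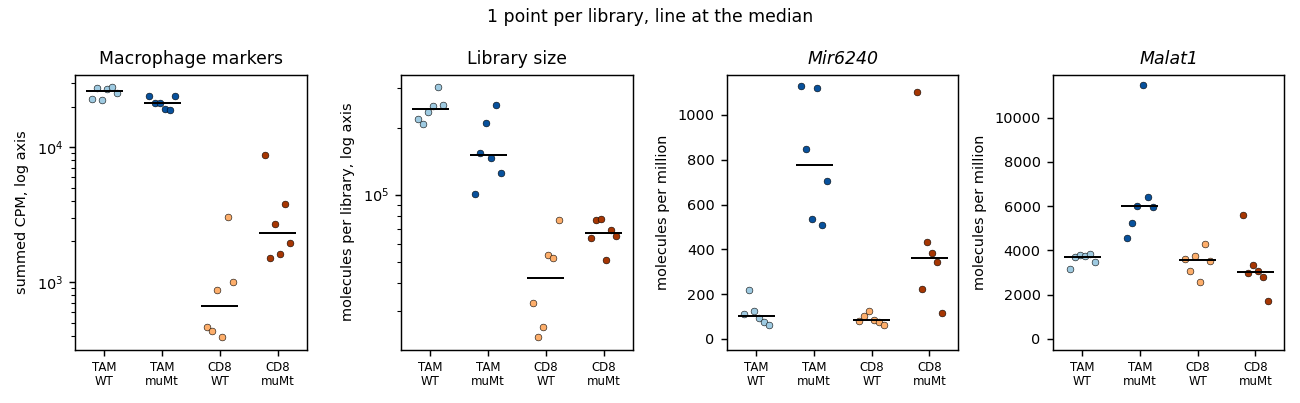
Per library, the summed level of 22 macrophage markers in CPM and the number of molecules (log axes), and the levels of *Mir6240* and *Malat1* in mpm, with a line at the median of the 6 libraries of each group. *Mir6240* is higher in *muMt*-/- mice in both cell types, *Malat1* in TAMs, and macrophage markers in CD8+ T cells, where CD8T-uMT replicate 1 is highest at 8769 CPM.

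TNF target genes leaned up in TAMs without B cells, and their CD8 median depends on the covariate. TNF targets that the study listed for TAMs were chosen on these same libraries and are no independent evidence. All 85 tested genes had a positive TAM response (median 0.67). A positive CD8 response was found for 71 (median 0.76) and for 63.3% of all genes. In edgeR 21 rose in TAMs, 3 in CD8+ T cells and 26 in the mean response (adjusted p under 0.05), against 2.71%, 0.239% and 1.05% of all genes. With library depth as a covariate 8 of all 6283 genes passed as higher in TAMs, in place of 90. Of the 85, 12 lack a mean count above 1 in each of the 4 groups, so that the filter can set their direction. The median difference of -0.05 turns to 0.09 with DESeq2's size factors, is 0.17 relative to all genes, and 0 genes passed for it in edgeR (9 above and 13 below at an unadjusted p under 0.05). Under the macrophage marker covariate their CD8 median was 0.00 and the median difference 0.77 (0.91 relative to all genes), negative for 12 of 85. *Thbs1*, the matrix protein thrombospondin 1, rose in TAMs (1.77, adjusted p = 0.00642) and was at 1.13 in CD8+ T cells. *Bcl2l11*, a promoter of cell death, rose in TAMs (1.32, adjusted p = 0.00255) and was at 0.07 in CD8+ T cells. Among the study's examples *Tnfrsf1b*, a TNF receptor gene, was at 0.57 and -0.40 (difference 0.96, adjusted p = 0.290), and *Il1b*, the gene of interleukin-1β, at 0.66 and 1.83 (difference -1.16, adjusted p = 0.592). Within 4-fold of level between cell types, 64 genes had medians of 0.70 in TAMs and 0.57 in CD8+ T cells.

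General lists of TNF-induced and immediate early genes had smaller TAM medians. The 42 TNF-induced genes had 0.32 in TAMs and 0.52 in CD8+ T cells (0.33 and 0.36 relative to all genes), with 4 up in TAMs (where 2.71% of all genes passed), among them *Ninj1*, *Gadd45b* and *Ptgs2*, the gene of cyclooxygenase 2 (0.94, edgeR adjusted p = 0.0410), and 5 up in the mean response (where 1.05% of all genes passed). Their median difference was -0.19 (-0.03 with DESeq2's size factors, 0.03 relative to all genes). The 25 immediate early genes had 0.40 and 0.52, with 2 up in TAMs (*Nr4a2* and *Klf4*), and a median difference of -0.06, which turns to 0.09 with DESeq2's size factors. For these lists 0 genes passed for the difference in edgeR (10 and 2 at an unadjusted p under 0.05). Their CD8 medians with the macrophage marker covariate were -0.02 and 0.00, and their median differences 0.30 and 0.52. *Fos* was at 0.51 and 0.99 and *Junb* at 0.47 and 0.52, without passing.

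In the remaining lists few genes passed. Of all genes 2.71% passed in TAMs, 0.239% in CD8+ T cells and 1.05% for the mean response. Of 37 interferon-induced genes *Irf8* and *Cd274*, which encodes PD-L1, rose in TAMs (0.55 and 0.88, edgeR adjusted p = 0.0491 and 0.0300), and the medians were 0.00 in TAMs and 0.37 in CD8+ T cells, the latter -0.10 with the macrophage marker covariate. Among 21 genes of MHC class I presentation *Psmb10*, an immunoproteasome subunit, fell in TAMs (-0.73, adjusted p = 0.0159), and *B2m* was at 0.25 and 0.16. The 27 glycolysis and hypoxia genes had medians of 0.14 and 0.37 and a median difference of -0.29, where the macrophage marker covariate turns the CD8 median to -0.14 and the difference to 0.28, with *Hif1a* and *Ddit4* up in TAMs (0.74 and 1.30, adjusted p = 0.0248 and 0.0375). ATF4 stress genes (20 tested) had -0.27 and 0.10, the latter -0.20 with that covariate. Only 9 of 24 cytotoxic effector genes had enough molecules in both cell types, with medians of 0.06 and 0.16 and 0 passing in any edgeR comparison (3 at an unadjusted p under 0.05 for the difference), and *Ccl4* was at 0.09 and 0.25. The list of T cell inhibitory receptors also holds *Nr4a3* and the nuclear receptor genes *Nr4a1* and *Nr4a2*. Of its 15 genes 6 were tested, with medians of 0.57 and 0.69 (0.58 and 0.53 relative to all genes) and positive estimates for 5 in TAMs and 6 in CD8+ T cells. The 2 up in the mean response were *Nr4a1* and *Nr4a2*, and *Nr4a2* was up in TAMs, so that none of its inhibitory receptor genes passed. Over the 6 genes the median difference of -0.09 turns to 0.05 with DESeq2's size factors. Of 20 T cell markers 1, *Thy1*, was tested (0.06 and 0.03), since the others, *Cd28* and *Lck* among them, were too low in TAMs.

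*muMt*-/- mice with a GABA pellet were compared with the same WT libraries, so those values share their controls and are given side by side. For *BC018473* the TAM response with GABA was -3.30 and the CD8 response 0.43, against -0.88 and 1.63 without. Its difference with GABA was -3.73 ± 0.55 (SE, edgeR adjusted p = 1.49e-04). In *Grn* the difference was -2.44 with GABA and -2.83 without, in *C1qb* -2.41 and -2.85, in *Ftl1* -1.41 and -1.43, and in *Rpl28* -1.44 and -1.31. For *H2afz* it was -0.47 and -1.45, and for *Rpl7a* -0.53 and -0.99. None of these passed with GABA (edgeR adjusted p = 0.228, 0.228, 0.0606, 0.228, 0.799 and 0.662). *Mir6240* with GABA was at 1.61 (TAMs) and 1.83 (CD8+ T cells). Over all genes 2 passed for the difference with GABA, 1 of them among the 13 (472 at an unadjusted p under 0.05).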

How the data were processed

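Digital RNA sequencing was done on 100 sorted cells per library. The authors mapped reads with STAR to mm10 and its refFlat annotation and deposited counts of distinct molecules per gene, without normalization. The labels mention ERCC spike-ins, which are not in the deposited table. Of 36 libraries 24 were compared (6 in each of 4 groups), at 22896 to 304100 molecules each. Genes with a mean count above 1 in both cell types were tested, 6283 of 24781. Of these, 11 have date-like names and 6161 were found in RefSeq. At this depth a gene with 1 molecule per library has few molecules per group.

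Counts were scaled by TMM over all 24 libraries and fitted in edgeR 4.0.16 (R 4.3.3) with 1 mean per group, and contrasts were tested by quasi-likelihood with Benjamini-Hochberg adjustment at 0.05. Contrasts were the TAM response, the CD8 response, their difference and their mean; for a response in both, the larger p was adjusted. Levels in mpm are counts over the TMM-scaled library size, and CPM are counts over the total, each times 1000000. Depth and markers were compared by exact permutation (smallest p 0.0022), and 1 molecule was added to T cell markers in TAMs because 2 libraries have 0. The procedure was tested on simulated data.

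Alternatives were DESeq2 1.42.0, its size factors, limma 3.58.1 (voom), TMM per cell type, other filters, a robust fit, all 36 libraries, replicate blocks, covariates and leaving out each library. They were chosen before the results of this comparison were seen, except that leaving out the CD8 library of each genotype highest in macrophage markers or the 2 highest of all, a mean count above 1 in each group, the T cell markers without logarithm, the split of genes by level and the GABA-treated comparison were chosen after seeing the data. Named genes follow a rule: the 12 smallest p in each direction of the difference, 6 up and 6 down for the shared response, the 3 most abundant of each of 23 lists, 3 markers and the study's examples, and 1 gene it picks is not reported here. Members and lists were chosen with earlier results of these data known. Pairing by mouse was not used, as the labels do not give it.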

Additional observations from a re-analysis of the deposited data

Results flagged for a closer look

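In 152 groups of 6 libraries the highest or lowest library was compared with the others, and in 19 it lay far from them, where chance gives about 1 in 20, or 7.6.

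Macrophage markers were far above the other libraries in CD8T-WT replicate 5 (3054 CPM, others 392 to 1001) and CD8T-uMT replicate 1 (8769 CPM, others 1520.0 to 3811). In mpm (molecules per 1000000 of the scaled library) CD8T-uMT replicate 1 was also far above the others for *Clec7a* (805, others 43.3 to 260.1), *Mir6240* (1100, others 115 to 433) and *Snora64* (98.5, others 12.7 to 38.2). CD8T-WT replicate 5 was so for *Mpeg1* (187, others 0 to 63.3). CD8T-uMT replicate 6 was so for *Ifngr1* (749.7, others 263 to 393).

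Among TAM libraries Mp-uMT replicate 4 was far above the others for *Malat1* (11462.4, others 4561 to 6419), *Clec7a* (2594, others 1150 to 1590), *Fyb* (717, others 427 to 511), *Adam17* (568, others 239 to 309) and *Soat1* (378, others 238 to 274). Mp-WT replicate 5 was so for *Ftl1* (4595, others 3195 to 3646) and *Clec7a* (910.4, others 444 to 580.3). Mp-WT replicate 1 was lowest for *Pdia6* (208, others 309.6 to 348) and *Serpina3g* (118, others 132 to 139.8). *Ccr7* stood out in Mp-uMT replicate 3 (69.0, others 0 to 15.8) and in Mp-WT replicate 6 (4.02, others 0), and *Cdc20* in Mp-uMT replicate 5 (30.8, others 0 to 10.6).

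In 13 genes the response differed between the cell types by the test of the difference itself (edgeR), with TAM minus CD8 responses of -2.51 for *BC018473*, -2.83 for *Grn*, -1.43 for *Ftl1*, -2.85 for *C1qb*, -1.45 for *H2afz*, -1.31 for *Rpl28*, -3.19 for *C1qc*, -0.99 for *Rpl7a*, -1.59 for *Psap*, -2.68 for *Mpeg1*, -1.51 for *Pdia6*, -2.13 for *Tmem109* and, fitted against a group at 0 and so no measure of size, -6.52 for *Cdc20*.

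In libraries outside the comparison, the CD8 libraries of GABA-treated *muMt*-/- mice, macrophage markers were above the WT libraries by 1.59 on the log2 scale (exact permutation p = 0.0455, 6 against 6, same WT libraries).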

How the results depend on the processing

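None of the differences of the 13 genes changed sign under any alternative in which the gene was tested. Not all were tested in each of the 17 settings, with *Cdc20* in 12 and *C1qc* and *Tmem109* in 14. The 13 genes with unlike responses became 1 with DESeq2's size factors, with all 36 libraries and with the number of molecules as a covariate, 3 with limma voom, 5 with TMM per cell type, filterByExpr, genes within 4-fold or without the 2 CD8 libraries highest in macrophage markers (3 shared), 6 with a mean count above 1 in each of the 4 groups, 8 with a mean count above 5 or macrophage markers as a covariate, 22 with a replicate block of 12, 48 without the CD8 library of each genotype highest in macrophage markers (12 of them shared), 54 with DESeq2, 99 without a filter and 540 with DESeq2 unadjusted. A replicate block of 6 gave 11 and a robust fit 17.

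The 66 genes of the mean response became 2 with macrophage markers as a covariate, 6 without the 2 highest CD8 libraries, 9 with 36 libraries and 26 with voom. They became 33 within 4-fold, 54 with a mean count above 1 in each group (50 shared) and 118 with filterByExpr. Without a filter 141 passed, with DESeq2 158 and with DESeq2 unadjusted 680. The 1 gene past the test in both cell types became 0 with DESeq2's size factors, a mean count above 5, a mean count above 1 in each group, filterByExpr, voom, the robust fit, 36 libraries, macrophage markers as a covariate and without the 2 highest CD8 libraries, 8 without a filter and 73 with DESeq2 unadjusted. Without the CD8 library of each genotype highest in macrophage markers 1 gene passed, and it was not *Mir6240*. In edgeR 81 had an unadjusted p under 0.05.

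The 170 genes of the TAM response became 11 with the number of molecules as a covariate (9 shared), 80 with 36 libraries, 259 without a filter, 273 without the highest CD8 library of each genotype, 289 with macrophage markers as a covariate, 333 with voom and 880 with DESeq2 unadjusted. The 15 of the CD8 response became 0 with DESeq2's size factors, voom, the robust fit, 36 libraries, macrophage markers as a covariate and without the 2 highest CD8 libraries (518 unadjusted in edgeR, 71 with DESeq2), 2 with the number of molecules, 4 with a mean count above 5 and with filterByExpr, 5 within 4-fold, 32 without the highest CD8 library of each genotype, 105 without a filter and 433 with DESeq2 unadjusted. The cause was not tested; fewer genes are tested where the filter is stricter.

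Leaving out 1 library, the difference gave 1 to 50 genes, the mean response 22 to 110, both 0 to 1, TAMs 60 to 243 and CD8 0 to 58. The difference moved over 1.5 times without CD8T-WT replicate 1 (5), 2 (1), 3 (4), 4 (6), 5 (50) or 6 (21), CD8T-uMT replicate 3 (5) or 5 (1), Mp-WT replicate 2 (6), 3 (4), 4 (6), 5 (4) or 6 (5), and Mp-uMT replicate 1 (4), 2 (6) or 4 (5). The mean response did without CD8T-WT replicate 1 (24), 2 (35), 3 (36), 4 (31) or 5 (107) and CD8T-uMT replicate 1 (22), 2 (110), 5 (40) or 6 (101). The CD8 response did without CD8T-WT replicate 1 (0), 2 (0), 3 (3), 4 (0) or 5 (58) and CD8T-uMT replicate 1 (0), 2 (43), 4 (37), 5 (2) or 6 (54). The TAM response did without Mp-WT replicate 1 (92), 3 (107) or 6 (100) and Mp-uMT replicate 1 (110) or 4 (60). The test in both gave 0 without any CD8T-WT library or CD8T-uMT replicate 1 or 3.

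The level of macrophage markers in CD8 libraries was 1.495 to 2.228 higher on the log2 scale leaving out 1 library (exact permutation p 0.00433 to 0.0346), and that of T cell markers in TAM libraries differed by -1.25 to -0.61 (p 0.0736 to 0.338). The molecules per library in TAMs differed by -0.77 to -0.50 (p 0.00866 to 0.0520, over 0.05 without Mp-WT replicate 5 or Mp-uMT replicate 1, 2, 4 or 6) and molecules per library in CD8 T cells by 0.58 to 0.93 (p 0.0130 to 0.0779, over 0.05 without CD8T-WT replicate 1, 2 or 3 or CD8T-uMT replicate 1, 2, 3, 5 or 6).

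Of 90 genes picked by the naming rule that did not pass, 40 changed the sign of their difference in some setting, in 114 pairs of gene and setting. CD8 libraries, at 22896 to 77839 molecules, are shallower than TAM libraries, which limits the test in genes with few molecules.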
